A study of Mus musculus with 12 samples.

Results

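Male mice kept in low oxygen for weeks carried more red blood cell, mitosis, matrix and acute phase RNA in ventricular samples than males in room air. They carried less RNA for fatty acid oxidation, several ion channels and some MHC class II genes, the last chosen after the data were seen. The comparison used 6 of the 12 RNA-seq libraries of the series, all those made from males: 3 from normoxia and 3 from hypoxia. Male hypoxia libraries 2 and 3 also held the atrial muscle genes Myl7, Sln and Mybphl. Without these 2 libraries the median log2 fold changes of the genes called higher and lower were 0.72 and -0.52, against 0.88 and -0.63 with them. All mice were C57BL/6 and no genetic change is labelled. In the male hypoxia group chamber oxygen was lowered by 1% a day over 14 days to 7% and held there for 2 weeks. The male normoxia group breathed 20.9% oxygen for 4 weeks. RNA came from ventricular samples of snap-frozen hearts. Which ventricle was taken, and how old the mice were, is not given in the sources used here. The remaining 6 libraries came from females under the same oxygen conditions, 3 per condition, and entered the fit for the estimate of the spread. It is also not stated that each library came from its own animal, so the p-values below speak of the spread among these samples, some of which may be technical.

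Oxygen shortage acts on the heart in several ways. Within cells, prolyl hydroxylases lose activity when oxygen is low, hypoxia-inducible factors (HIF) accumulate, and genes of glycolysis, vessel growth and iron handling are switched on. In the whole animal, erythropoietin raises red cell production, and constricted lung arteries put a pressure load on the right ventricle, which can enlarge and lay down matrix. Heart muscle otherwise draws most of its energy from fatty acids burned in mitochondria.

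The male libraries held between 14915769 and 19397811 estimated counts. Both Y-linked genes and Xist matched the labelled sex in all 12 libraries. Haemoglobin transcripts took 0.146 to 0.210% of counts in male normoxia and 1.07 to 1.39% in male hypoxia, and mitochondrially encoded transcripts took 27.6 to 29.3% and 15.8 to 23.1%. Neither pair of groups overlapped, and each gave an exact two-sided permutation p of 0.1, the smallest that 3 libraries against 3 allow. The first principal component of the male libraries held 41.6% of the variance and the second 17.5%.

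Because the tissue is labelled ventricular, the libraries were first checked for genes of atrial muscle. Myl7, the atrial regulatory light chain of myosin (ENSMUSG00000020469), had 4, 1 and 3 estimated counts in male normoxia libraries 1 to 3 and 4 in male hypoxia library 1. In male hypoxia libraries 2 and 3 it had 1214 and 1060 counts, and no female library held more than 15. Male hypoxia libraries 2 and 3 therefore stood apart from the other 10, and library 1 did not differ in this gene from normoxia. Sln, which encodes the atrial calcium pump regulator sarcolipin (ENSMUSG00000042045), had 0, 0 and 1 counts in male normoxia, 1 in male hypoxia library 1, and 339 and 225 in libraries 2 and 3. Mybphl, a myosin-binding protein of atrial muscle (ENSMUSG00000068745), had 1, 5 and 4 counts in male normoxia, 0 in male hypoxia library 1, and 143 and 113 in libraries 2 and 3. All 3 genes thus gave the same split within the male hypoxia group.

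Not every gene known for the atria followed. Of the 16 listed atrial genes 12 were tested in the main fit, and 6 of them were called higher and 0 lower (Myl4, Myl7, Dkk3, Pam, Nppa and Nr2f2). That was 50% of the 12, against 8.47% of all genes. The calls of Myl7, Myl4 and Dkk3 were lost with limma voom (adjusted p = 0.433, 0.114 and 0.0780). Dkk3, a secreted atrial protein, was at 1.95, 1.90 and 1.30 CPM in male normoxia and 4.30, 36.1 and 29.7 CPM in male hypoxia libraries 1 to 3, so library 1 was not at the normoxia level in every atrial gene. In female hypoxia libraries 2 and 3 Dkk3 was at 12.1 and 9.11 CPM, with Myl7 at 0.384 and 0.781 CPM. Sln and Mybphl did not pass the filter on low counts, which asks for reads in 3 libraries. A fit with no filter called both higher, on the values of male hypoxia libraries 2 and 3. Their log2 fold changes there were 8.41 and 4.36 (adjusted p = 0.00430 and 0.0247 by edgeR's quasi-likelihood test). The list's remaining genes below the filter, Bmp10 and Dhrs9, were not called in that fit. Bmp10, a growth factor of the right atrium, had at most 3 counts in any male library, and the potassium channel genes Kcnj3 and Kcnj5 (log2 fold changes of -0.72 and -0.42, adjusted p = 0.145 and 0.168 by edgeR's quasi-likelihood test) and the transcription factor gene Tbx5 (0.07, adjusted p = 0.801) were not called. Summed over the 16 genes, the level was 688 to 797 CPM (counts scaled to library size) in male normoxia, 1254 in male hypoxia library 1, 2704 and 1882 in libraries 2 and 3, and 826 to 1680 in females. Most of that sum was Nppa and Pam, at 485 and 610 CPM in male hypoxia library 1. In libraries 2 and 3 they were at 1512 and 843 CPM and at 797 and 806 CPM. In female hypoxia library 3, which had the highest female sum, they were at 1046 and 525 CPM.

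Several genes of other tissues around the heart were also highest in these 2 male libraries. Cfd, the adipocyte protease adipsin, had 0, 13 and 14 counts in male normoxia, 11 in male hypoxia library 1, and 350 and 241 in libraries 2 and 3. Adipoq, the fat cell hormone adiponectin, had 3, 0 and 1 counts in male normoxia, 2 in male hypoxia library 1, and 46 and 33 in libraries 2 and 3. The fat droplet gene Cidec had 2, 3 and 7 counts in male normoxia, 3 in male hypoxia library 1, and 43 and 35 in libraries 2 and 3, and the fat cell hormone gene Retn had 6, 1 and 2, then 1, 25 and 18. Plin1 was listed at 0 in every library, which may be a failed estimate. The summed level of the 18 adipocyte genes was 4778 to 4888 CPM in male normoxia and 4765 to 5889 in male hypoxia. Most of that sum was Lpl, the lipase that heart muscle also makes (3604 to 4879 CPM in the male libraries). The mean log2 CPM over the 9 adipocyte genes tested was 3.26 to 3.80 in male normoxia and 4.04, 4.86 and 4.82 in hypoxia libraries 1 to 3. Of the 9 fold changes 8 were positive, and 2 genes were called higher (Fabp4 and Scd1; 22.2%, against 8.47% of all genes). Of the 12 genes listed for valves and large arteries, Chad, a cartilage matrix protein, had 0 to 3 counts in male normoxia, 0 in male hypoxia library 1, and 43 and 49 in libraries 2 and 3. Their summed level was 125 to 140 CPM in male normoxia, 137 in male hypoxia library 1, and 294 and 268 in libraries 2 and 3. In females it was 103 to 145 CPM in normoxia, 132 in hypoxia library 1, and 242 and 220 in hypoxia libraries 2 and 3. This sum was thus also raised outside the male libraries. In female hypoxia libraries 2 and 3 Cilp was at 85.3 and 66.9 CPM and Eln at 83.5 and 78.8 CPM. Chad was at 0.0548 and 0 CPM there, and Prg4 at 12.8 and 16.3 CPM, against 73.6 and 66.1 CPM in male hypoxia libraries 2 and 3. Of 9 tested genes of this list 4 were called higher in males (44.4%, against 8.47% of all genes) and 1 lower. Their median log2 fold change was 1.51, and -0.58 without male hypoxia libraries 2 and 3.

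**Figure D1:**
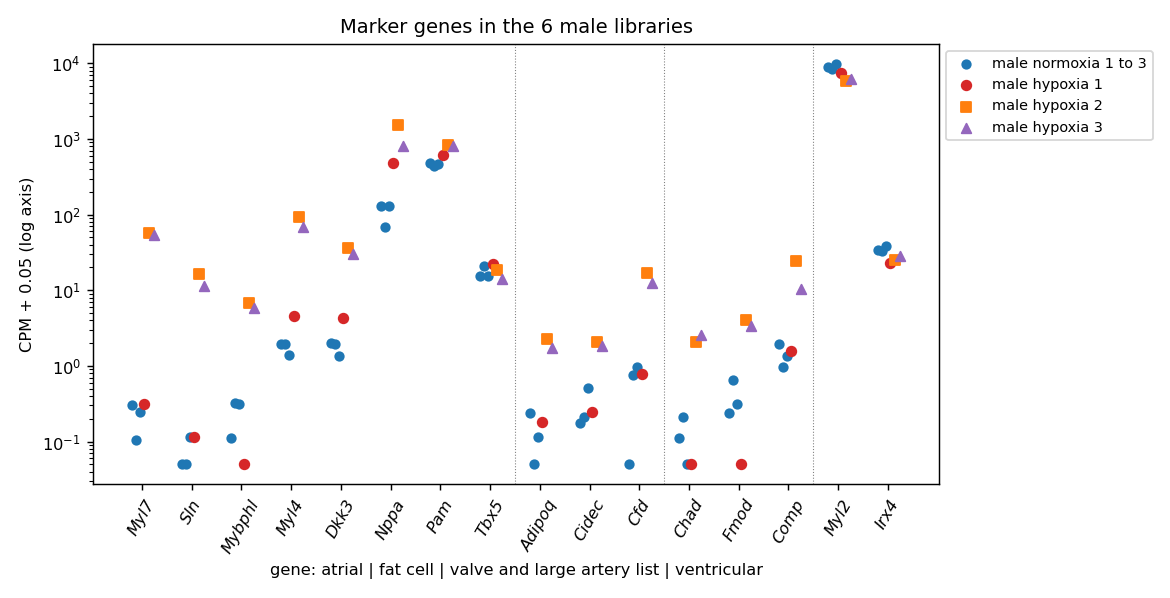
Each point is 1 male library. The vertical axis is CPM plus 0.05 on a log scale for genes of atrial muscle, ventricular muscle, fat and valves. Myl7, Sln and Mybphl lie far higher in male hypoxia libraries 2 and 3 than in the other 4 libraries, while Myl2 is high in all 6.

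Over all genes, the 2 libraries shared a few further transcripts. At 1 CPM or more in male hypoxia libraries 2 and 3 and at most 0.5 CPM in the other 4 male libraries there were 29 genes, against 4 genes for the matching pattern of libraries 1 and 2 and 3 for libraries 1 and 3. Of the 29 genes 12 were above 0.5 CPM in no female library. The others passed that level in females by little, as Myl7 did (at most 0.781 CPM), or by much, as Akap13 did (up to 70.8 CPM). The ventricular light chain Myl2, the counterpart of Myl7, was at 8826, 8472 and 9793 CPM in male normoxia and 7384, 5802 and 6158 in male hypoxia. It was abundant in all 6 libraries, with a log2 fold change of -0.49 ± 0.13 (SE, adjusted p = 0.0252), and that call was lost without male hypoxia library 2 or 3 or without male normoxia library 1 or 3 (adjusted p = 0.0668 to 0.0894). The part that tissue other than ventricle played in the results below was not tested. Values without libraries 2 and 3 are given beside many of them.

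Across the transcriptome, 2174 of 13960 genes tested (15.6%) were called between male hypoxia and male normoxia at an adjusted p under 0.05 (edgeR's quasi-likelihood test). Of these 1183 (8.47%) were higher in hypoxia and 991 (7.1%) lower. The higher genes changed further: 498 rose and 182 fell at least 2-fold, and 57 rose and 3 fell at least 8-fold. The median log2 fold change was 0.88 among the higher genes, -0.63 among the lower genes and 0.01 over all genes.

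Male hypoxia library 1, in which Myl7, Sln and Mybphl were near their normoxia levels, moved the same way by a smaller amount. Its median log2 difference from the normoxia mean was 0.72 over the higher genes, against 0.85 and 0.96 for libraries 2 and 3, and -0.51 over the lower genes, against -0.66 and -0.69. It lay above every normoxia library for 1177 of the 1183 higher genes and below every one for 989 of the 991 lower genes, where 34.2% and 32.6% of all genes tested did. These same values helped to choose the genes, so they are a description. With libraries 2 and 3 left out, all 1183 higher genes still had a positive fold change and all 991 lower genes a negative one, with medians of 0.72 and -0.52.

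With 1 hypoxia library left, few of those genes passed the test, which then takes the spread of the single library from the other groups. Without libraries 2 and 3, 50 genes were called higher (0.341% of 14663) and 16 lower (0.109%), among them 48 of the 1183 and 5 of the 991. Leaving out any pair of hypoxia libraries lowered the counts: 440 higher and 276 lower genes were called when library 3 stood alone, among them 397 of the 1183 and 245 of the 991, and 214 and 124 when library 2 did, among them 199 and 94. Single libraries mattered too. Without male hypoxia library 2 there were 610 higher and 384 lower genes, without library 3 there were 519 and 358, and without library 1 there were 1121 and 1008. Without male normoxia library 1, 2 or 3 there were 527, 730 and 591 higher and 426, 571 and 479 lower genes.

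**Figure D2:**
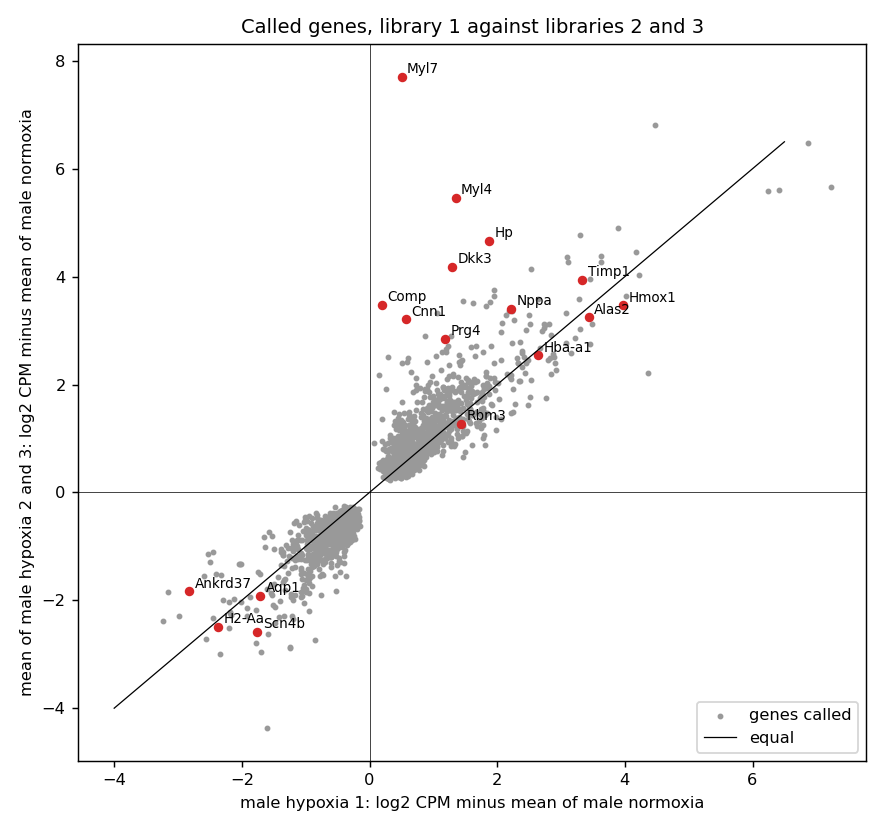
Each grey point is a gene called between the groups. The horizontal axis is log2 CPM in male hypoxia library 1 and the vertical axis that of libraries 2 and 3 averaged, each minus the male normoxia mean. Most genes lie near the line of equal difference, with Alas2 and H2-Aa among them, and Myl7 and Myl4 lie far above it.

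Genes of red blood cells gave the firmest change. Of 11 tested genes of the erythroid list, 9 were called higher and 0 lower, with a median log2 fold change of 2.58, and 6 were still called without libraries 2 and 3 (median 2.66). Alas2, the erythroid enzyme that starts haem synthesis (ENSMUSG00000025270), was at 9.37, 17.4 and 9.84 CPM in male normoxia and at 127, 109.6 and 115 CPM in male hypoxia. The groups did not overlap and library 1 was the highest (log2 fold change 3.26 ± 0.24, SE, adjusted p = 0.000121). Without libraries 2 and 3 the log2 fold change was 3.38 ± 0.31 (adjusted p = 0.00295). Hbb-bs, which encodes beta-globin, rose 6.42-fold, from 531, 646 and 517 CPM to 3569, 4219 and 3086 CPM (adjusted p = 0.000121). Slc4a1, the anion exchanger of the red cell membrane, rose as well, from 0, 0.598 and 0.130 CPM to 3.24, 4.34 and 7.04 CPM (log2 4.23 ± 0.80, adjusted p = 0.00767). With single libraries left out its log2 fold change ran from 3.68 (without male normoxia library 1) to 6.10 (without male normoxia library 2), and its call held. The globin genes are near copies of each other, so their separate values are uncertain. In bulk tissue, more cells of a type and more RNA per cell cannot be told apart, which holds for every cell type below.

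Erythroid genes are commonly bound by the factor GATA1, and promoters of 7 of the 11 tested genes were in the RefSeq table. The letters AGATAA or TGATAA, on either strand and within 250 bases upstream of the start, were present in 4 of 7 (57.1%), against 17% of 27025 mouse promoters of that length and 8.91% of those of genes tested. The Alas2 promoter is shown because its gene had the largest log2 fold change of the erythroid genes that were also called without libraries 2 and 3. It is 250 bases at chrX:150547167-150547416 on the + strand of GRCm38.p6, from RefSeq, with the match in capitals as read on the other strand.
Alas2: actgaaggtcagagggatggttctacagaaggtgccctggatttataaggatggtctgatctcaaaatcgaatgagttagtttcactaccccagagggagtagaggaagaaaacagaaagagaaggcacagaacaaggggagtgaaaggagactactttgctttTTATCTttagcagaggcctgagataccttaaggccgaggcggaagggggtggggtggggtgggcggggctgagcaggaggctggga
A match is a run of letters, and binding was not measured here.

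Enzymes and carriers that deal with free haem and iron changed in part. Of 16 tested, 3 were called higher (18.8%, against 8.47% of all genes) and 0 lower. The 3 were Hmox1, Hp and Lcn2. Hmox1, haem oxygenase, which breaks haem down (ENSMUSG00000005413), was at 7.48, 11.2 and 6.87 CPM in normoxia and at 132, 98.4 and 88.2 CPM in hypoxia. The groups did not overlap (log2 fold change 3.63 ± 0.48, adjusted p = 0.00207), and it was still called without libraries 2 and 3 (3.95 ± 0.60, adjusted p = 0.0340). Hp, haptoglobin, which binds free haemoglobin, was at 1.32, 0.326 and 0.971 CPM in normoxia but 3.11, 30.9 and 15.9 CPM in hypoxia. Its rise (log2 4.27 ± 0.74, adjusted p = 0.00541) was 1.84 ± 0.67 in library 1 alone (adjusted p = 0.267), and limma voom did not call it (adjusted p = 0.0611). The ferritin chain Fth1 and the transferrin receptor Tfrc, with log2 fold changes of 0.37 and -1.34, were not called.

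Few known HIF targets outside glycolysis were called. Of 20 tested, 2 were higher and 1 lower, close to the shares of all genes, with a median log2 fold change of 0.08. Vegfa, the main growth factor for vessels, was at 372, 267 and 377 CPM in normoxia and 335, 289 and 269 CPM in hypoxia (log2 -0.18 ± 0.15, adjusted p = 0.412). The groups overlapped. The target that fell was Ankrd37, an ankyrin repeat gene (ENSMUSG00000050914), which went from 5.91, 4.95 and 5.31 CPM to 0.662, 1.48 and 1.38 CPM. Its log2 fold change was -2.18 ± 0.28 (adjusted p = 0.00168), and -3.01 without libraries 2 and 3 (adjusted p = 0.00870). Edn1, the vessel constrictor endothelin, rose from 2.64, 3.21 and 5.12 CPM to 8.28, 11.4 and 10.1 CPM (log2 1.45 ± 0.32, adjusted p = 0.0146). That call was lost without male hypoxia library 2 (adjusted p = 0.0533) and without male normoxia library 1 or 2 (0.0636 and 0.0528).

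Genes of cell division rose together. Of 36 mitosis genes, all tested, 25 were called higher and 0 lower, with a median log2 fold change of 1.76 and of 1.62 without libraries 2 and 3. In 33 of the 36, all hypoxia libraries lay above all normoxia libraries, as in 21.5% of all genes tested. None was called without libraries 2 and 3, and 12 were called without male hypoxia library 3, 13 without male normoxia library 3, and 17 to 23 without any other single male library. Mki67, a protein of dividing cells (ENSMUSG00000031004), was at 5.66, 6.53 and 3.89 CPM in normoxia and 19.4, 15.8 and 27.4 CPM in hypoxia. All 3 hypoxia libraries lay above all normoxia libraries (log2 1.95 ± 0.33, adjusted p = 0.00506), and library 1 alone gave 1.85 ± 0.42 (adjusted p = 0.116). Ccnb1, cyclin B1, the partner of the mitotic kinase, rose from 0.314, 0.544 and 0.648 CPM to 2.71, 3.05 and 5.20 CPM (log2 2.85 ± 0.44, adjusted p = 0.00363). Cdc20, which activates the ligase that ends mitosis, rose from 1.45, 1.90 and 1.42 CPM to 5.76, 5.72 and 7.29 CPM (log2 1.97 ± 0.34, adjusted p = 0.00527). Their levels were low throughout, and the cell type that divided cannot be read from these libraries.

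The DNA replication list had a share of calls near that of all genes. Of 29 tested, 3 were called higher (E2f1, Uhrf1 and Clspn; 10.3%, against 8.47% of all genes) and 0 lower, with a median of 0.32, and leaving out 1 male library left 1 or 2 of them called. E2f1, a transcription factor of the cell cycle, rose from 1.95, 2.28 and 1.62 CPM to 4.44, 6.20 and 4.64 CPM (log2 1.38 ± 0.23, adjusted p = 0.00515). The replicative helicase genes Mcm2, Mcm3, Mcm4, Mcm6 and Mcm7 had log2 fold changes between -0.38 and 0.56 and none was called.

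Promoters of mitosis genes are known for CCAAT boxes, which bind NF-Y, and for a cell cycle homology region, TTTGAA or TTCGAA, which binds the DREAM complex. Within 250 bases upstream of the start, on either strand, CCAAT was found in 24 of the 32 mitosis genes with a RefSeq promoter (75%), against 34.5% of all 27025 promoters and 36.3% of those of genes tested. TTTGAA or TTCGAA was found in 12 of the 32 (37.5%), against 17.4% and 12.3%. Among all genes called higher with a promoter entry, 34.2% held CCAAT and 12% TTTGAA or TTCGAA. The list was not chosen by these letters. The promoters of Mki67 (chr7:135716380-135716629), Cdc20 (chr4:118437344-118437593), Ccnb1 (chr13:100786487-100786736) and Ncaph (chr2:127133955-127134204), all on the - strand of GRCm38.p6 and from RefSeq, show the range, with matches to either motif in capitals on the strand printed.
Mki67: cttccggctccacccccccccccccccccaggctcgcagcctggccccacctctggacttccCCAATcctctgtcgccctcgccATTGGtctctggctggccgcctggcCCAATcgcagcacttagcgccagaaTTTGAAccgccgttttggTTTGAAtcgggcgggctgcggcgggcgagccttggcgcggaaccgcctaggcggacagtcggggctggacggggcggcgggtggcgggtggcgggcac
Cdc20: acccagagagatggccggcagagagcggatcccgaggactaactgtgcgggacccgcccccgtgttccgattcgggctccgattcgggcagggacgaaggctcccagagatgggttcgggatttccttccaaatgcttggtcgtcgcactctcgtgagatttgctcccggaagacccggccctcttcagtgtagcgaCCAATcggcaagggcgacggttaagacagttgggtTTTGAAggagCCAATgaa
Ccnb1: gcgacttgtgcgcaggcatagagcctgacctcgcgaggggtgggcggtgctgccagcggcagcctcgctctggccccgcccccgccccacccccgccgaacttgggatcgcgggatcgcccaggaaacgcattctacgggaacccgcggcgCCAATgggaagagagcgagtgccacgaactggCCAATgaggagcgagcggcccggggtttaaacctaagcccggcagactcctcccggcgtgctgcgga
Ncaph: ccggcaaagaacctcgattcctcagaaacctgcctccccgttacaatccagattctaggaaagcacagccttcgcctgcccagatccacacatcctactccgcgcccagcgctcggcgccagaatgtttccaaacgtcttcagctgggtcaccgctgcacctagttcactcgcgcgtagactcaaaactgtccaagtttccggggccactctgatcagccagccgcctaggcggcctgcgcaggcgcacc
Mki67 and Cdc20 hold both motifs, Ccnb1 holds CCAAT alone, and Ncaph holds neither. Ncaph, a condensin subunit, nevertheless rose from 0.880, 1.36 and 1.10 CPM to 3.11, 5.004 and 4.23 CPM (log2 1.88 ± 0.31, adjusted p = 0.00438).

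Genes of the extracellular matrix rose broadly. Of 38 tested, 29 were called higher and 0 lower, with a median log2 fold change of 1.44. Without libraries 2 and 3 the median was 0.93 and 4 were called. Leaving out library 3 or library 2 alone left 16 and 18 called, leaving out a normoxia library left 17 or 18, and leaving out library 1 left 29. The summed level was 2702 to 2900 CPM in normoxia and 4567, 6221 and 7465 CPM in hypoxia libraries 1 to 3.

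Spp1, osteopontin (ENSMUSG00000029304), gave one of the clearest changes of the list, from 0.440, 0.163 and 0.389 CPM to 7.88, 6.72 and 6.94 CPM. Library 1 was the highest (log2 fold change 4.43 ± 0.45, adjusted p = 0.000688), and the gene was still called without libraries 2 and 3 (4.56 ± 0.63, adjusted p = 0.0200). Lox, lysyl oxidase, which cross-links collagen, rose from 2.83, 2.45 and 3.04 CPM to 20.1, 23.6 and 26.5 CPM (log2 3.08 ± 0.37, adjusted p = 0.00126). It too was called on library 1 alone (2.86 ± 0.48, adjusted p = 0.0486). Timp1, an inhibitor of matrix proteases, was at 1.07, 1.63 and 1.62 CPM in normoxia and 15.3, 21.8 and 25.0 CPM in hypoxia, with a log2 fold change of 3.40 ± 0.52 on library 1 alone (adjusted p = 0.0337). Tnc, tenascin C, a matrix protein of injured tissue, was the 4th such gene, at 12.6, 4.67 and 12.6 CPM in hypoxia against 0.971 to 1.14 CPM in normoxia (log2 3.24 ± 0.53, adjusted p = 0.00438). Of the 15 collagen genes in the list 11 were called higher, with a median log2 fold change of 1.39 over the 15. Col1a1, the main fibrillar collagen, rose from 44.9, 46.8 and 53.0 CPM to 129, 186 and 175 CPM (log2 1.76 ± 0.31, adjusted p = 0.00548), and by 1.42 on library 1 alone (adjusted p = 0.193).

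Matrix-making cells were followed with 16 fibroblast genes, of which 8 were called higher (50%, against 8.47% of all genes) and 0 lower. Their median fell from 0.77 to 0.23 without libraries 2 and 3, and leaving out library 2 or 3 or male normoxia library 3 left 3 called, while male normoxia library 1 or 2 left 4. S100a4, a calcium-binding protein of fibroblasts and macrophages, was at 2.96, 3.05 and 4.66 CPM in normoxia and 14.4, 14.7 and 14.5 CPM in hypoxia. The 3 hypoxia libraries were nearly equal (log2 fold change 2.04 ± 0.25, adjusted p = 0.00154). Comp, a cartilage and tendon matrix protein, behaved differently, at 1.89, 0.925 and 1.30 CPM in normoxia and 1.52, 24.6 and 10.2 CPM in hypoxia. Library 1 lay among the normoxia libraries, and the log2 fold change of 3.15 ± 0.79 (adjusted p = 0.0223) became 0.16 without libraries 2 and 3 (adjusted p = 0.946). Its call was lost without any single male library other than hypoxia library 1 (0.0538 to 0.0948). Among the more general genes of the list, Vim, vimentin of mesenchymal cells, rose (log2 1.25 ± 0.23, adjusted p = 0.00647), as did the growth factor receptor gene Pdgfra (0.54 ± 0.12, adjusted p = 0.0138), whose call was lost without male hypoxia library 2 or 3 or male normoxia library 3 (0.0542 to 0.0587). Dpt, Ddr2 and Pdgfrb were not called (log2 0.13, 0.33 and 0.42), and the summed level of all 16 was 1539 to 1616 CPM in normoxia and 1844 to 2096 CPM in hypoxia.

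Comp was one of a small set of called genes that rested on male hypoxia libraries 2 and 3. Among the 1183 higher genes, 41 (3.47%) lay at least 2-fold lower in library 1 than in both of the others, against 2.56% of all genes tested, and 1 lay at least 2-fold higher. By size of that gap Myl7 came first, followed by the atrial genes Myl4 and Dkk3, then Comp, then Cnn1, a calponin of smooth muscle, and Hp; Prg4, Mmp3 and Ccn3 were also among the 41. These genes were chosen after their values were seen. Myl4, the atrial essential light chain, was at 1.89, 1.90 and 1.36 CPM in normoxia and 4.50, 91.8 and 69.0 CPM in hypoxia, and its log2 fold change of 4.997 ± 0.85 (adjusted p = 0.00515) was 1.39 ± 0.42 without libraries 2 and 3 (adjusted p = 0.204). Cnn1 was at 0.755, 0.544 and 1.94 CPM in normoxia and 1.46, 8.34 and 11.2 CPM in hypoxia, a call (log2 2.70 ± 0.67, adjusted p = 0.0210) lost without male hypoxia library 2 or 3 or male normoxia library 1 or 2 (0.0624 to 0.0833). Prg4, lubricin, a joint and valve surface protein, was at 7.36, 11.5 and 10.5 CPM in normoxia and 22.05, 73.6 and 66.1 CPM in hypoxia (log2 2.46 ± 0.42, adjusted p = 0.00524), and 1.17 on library 1 alone (adjusted p = 0.230). Only 6 of the called higher genes, among them Comp, Cnn1, Scd2 and Enpp6, and 2 of the lower ones, Ubxn10 and Nav2, had library 1 inside the normoxia range.

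**Figure D3:**
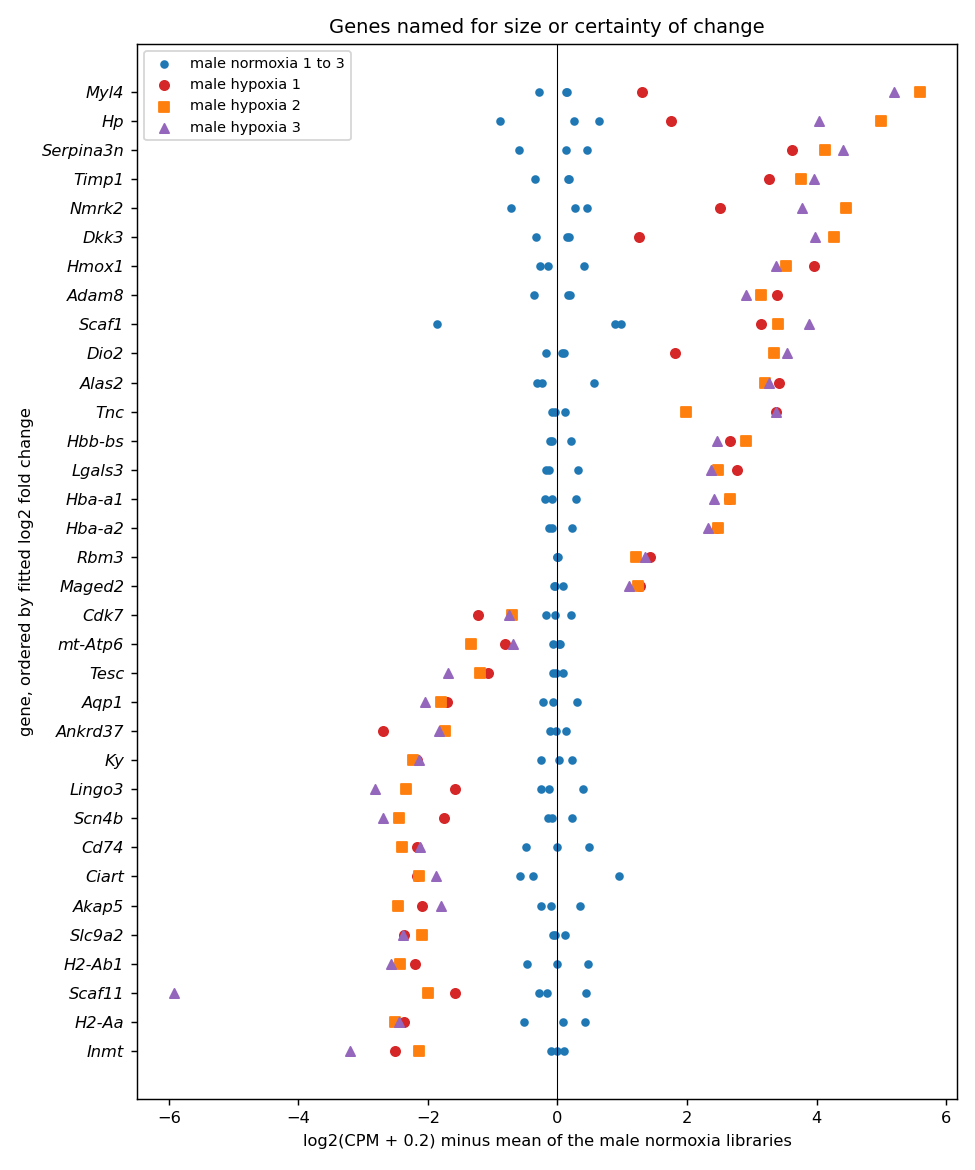
Each row is a gene with a large or firm change, and each point is 1 male library. The horizontal axis is the log2 of CPM plus 0.2 minus the mean of the male normoxia libraries. For most genes the 3 hypoxia libraries lie together, while for Myl4, Dkk3 and Hp male hypoxia library 1 lies nearer to normoxia than the other 2.

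Vessel lining genes rose moderately. Of 21 endothelial genes 10 were called higher (47.6%, against 8.47% of all genes) and 0 lower, with medians of 0.72 and, without libraries 2 and 3, 0.60. Vwf, the von Willebrand factor stored in endothelium (ENSMUSG00000001930), was at 51.1, 45.8 and 41.3 CPM in normoxia and 109, 132 and 146 CPM in hypoxia. The groups did not overlap (log2 1.49 ± 0.21, adjusted p = 0.00244; library 1 alone 1.25 ± 0.28, adjusted p = 0.117). Cxcr4, a chemokine receptor, rose from 3.84, 4.57 and 4.53 CPM to 8.34, 10.4 and 10.4 CPM (log2 1.17 ± 0.17, adjusted p = 0.00276), and the transcription factor gene Sox18 rose 2.21-fold (adjusted p = 0.00330). In the same list the VEGF receptor gene Kdr had a log2 fold change of -0.40 and Apln, the gene of the peptide apelin, of -1.06, neither called (adjusted p = 0.0676 and 0.198). Of 12 pericyte and smooth muscle genes, Cnn1 was called higher and Abcc9, a potassium channel subunit, lower. Each was 8.33% of the list, near the 8.47% and 7.1% of all genes.

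A few genes of acute inflammation were among the largest rises. Of 21 tested, 12 were called higher (57.1%, against 8.47% of all genes) and 0 lower, with medians of 1.48 and, without libraries 2 and 3, 1.05. Without male normoxia library 1 the count was 6 and without male hypoxia library 3 it was 7. Serpina3n, an acute phase protease inhibitor (ENSMUSG00000021091), was at 9.24, 5.55 and 11.7 CPM in normoxia and 106, 151 and 183 CPM in hypoxia. The lowest hypoxia library lay far above the highest normoxia library (log2 4.06 ± 0.52, adjusted p = 0.00174), and library 1 alone gave 3.59 ± 0.63 (adjusted p = 0.0543). Osmr, the receptor for oncostatin M, rose from 19.7, 15.4 and 20.9 CPM to 53.3, 44.8 and 58.0 CPM (log2 1.48 ± 0.21, adjusted p = 0.00244). Socs3, a feedback inhibitor of that receptor family, rose 4.02-fold (adjusted p = 0.00995). The cytokine genes Il1b and Tnf were not called (log2 -0.03 and 0.62), and Il6, Cxcl2 and Cxcl10 did not pass the filter.

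Macrophage genes changed in part: 5 of 18 were called higher (27.8%, against 8.47% of all genes) and 0 lower. The medians with and without libraries 2 and 3 were both 0.64. Trem2, a lipid receptor of tissue macrophages, rose from 2.33, 1.36 and 2.59 CPM to 9.998, 7.86 and 7.96 CPM (log2 2.04 ± 0.36, adjusted p = 0.00613). Of the general macrophage genes, Mertk, Mrc1 and Cd68 were called higher (log2 0.74, 0.97 and 1.33, adjusted p = 0.00647, 0.0115 and 0.0132), the call of Cd68 being lost without male normoxia library 3 (0.0528). Adgre1 and C1qa were not called (0.46 and 0.38, adjusted p = 0.154 and 0.223). The summed level of the list was 239 to 316 CPM in normoxia and 380 to 459 CPM in hypoxia. Outside the lists, Lgals3, galectin 3 (ENSMUSG00000050335), went from 3.14, 4.51 and 3.24 CPM to 25.7, 20.9 and 19.3 CPM, and was among the firmest changes with or without libraries 2 and 3 (log2 2.59 ± 0.22 and 2.82 ± 0.28, adjusted p = 0.0002 and 0.00358). Adam8, a membrane protease of leukocytes, rose from 1.13, 0.707 and 1.10 CPM to 11.98, 10.01 and 8.57 CPM (log2 3.38 ± 0.33, adjusted p = 0.000539) and kept its call without libraries 2 and 3 (3.61 ± 0.42, adjusted p = 0.00870).

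Several genes of antigen presentation by MHC class II fell. No list was fixed for them, and of 6 tested genes chosen after the data were seen 4 were called lower and 0 higher. H2-Aa, a chain of MHC class II (ENSMUSG00000036594), was at 53.8, 68.3 and 35.3 CPM in normoxia and 9.67, 8.72 and 9.08 CPM in hypoxia. All 3 hypoxia libraries, library 1 included, were far below the lowest normoxia library (log2 -2.52 ± 0.27, adjusted p = 0.00101; library 1 alone -2.44 ± 0.47, adjusted p = 0.0793). H2-Ab1, its partner chain, went from 38.9, 54.0 and 28.2 CPM to 8.34, 7.05 and 6.37 CPM (log2 -2.48 ± 0.28, adjusted p = 0.00107), and the invariant chain gene Cd74 from 107, 150.4 and 76.9 CPM to 23.7, 20.1 and 24.6 CPM (log2 -2.29 ± 0.26, adjusted p = 0.00106). H2-DMb1, which loads peptides onto class II and was picked after its values were seen, fell by 1.21 (SE 0.32, adjusted p = 0.0264), which did not hold without male hypoxia library 1 or 2 or male normoxia library 1 or 2 (0.0665 to 0.0887). H2-DMa and Ciita, the class II activator, had log2 fold changes of -1.81 and -2.22 and were not called (adjusted p = 0.211 and 0.0913), and H2-Eb1 did not pass the filter. Class II is carried by dendritic cells, B cells and some macrophages. Of 5 tested lymphocyte genes, the B cell genes Cd79b and Cd22 were called lower, from 1.32, 1.09 and 1.10 CPM to 0.199, 0.334 and 0.459 CPM for Cd79b (log2 -1.78 ± 0.41, adjusted p = 0.0162). That last call was lost without male hypoxia library 2 or male normoxia library 1 (adjusted p = 0.0588 and 0.0601), and the call of Cd22 was lost without any 1 of the 6 male libraries (adjusted p = 0.0584 to 0.138). The summed lymphocyte level was 5.49 to 7.36 CPM in normoxia and 2.19 to 3.77 CPM in hypoxia, and the part of B cell number in the class II values was not tested.

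Genes that burn fatty acids fell. Of 29 tested, 0 were called higher and 14 lower, and all 29 had a negative fold change, with a median of -0.71. The groups did not overlap for 24 of the 29, as for 19.8% of all genes tested in that direction. Without libraries 2 and 3 the median was -0.48 and 0 were called. Leaving out either of these libraries alone left 6 called, leaving out library 1 left 16, and leaving out a normoxia library left 7 or 8. Cpt2, which completes carnitine-linked import of fatty acids into mitochondria (ENSMUSG00000028607), was at 224, 266 and 236 CPM in normoxia and 137, 111 and 90.7 CPM in hypoxia. Library 1 was the nearest to normoxia but still clear of it (fell by 1.10, SE 0.17, adjusted p = 0.00386; library 1 alone -0.82 ± 0.23, adjusted p = 0.173). Fabp3, the fatty acid binding protein of heart muscle, fell from 3786, 3681 and 3779.9 CPM to 2122, 2085 and 1754 CPM (log2 -0.92 ± 0.15, adjusted p = 0.00467). Hadhb, a subunit of the trifunctional enzyme of beta-oxidation, fell by 1.05 (SE 0.18, adjusted p = 0.00540). The fatty acid transporter gene Cd36 and the switch kinase gene Pdk4 were not called (log2 -0.14 and -0.02).

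Messages of the mitochondrial genome fell, though not all were called. Of 13 mitochondrially encoded mRNAs 8 were called lower (61.5%, against 7.1% of all genes) and 0 higher, with medians of -0.72 and, without libraries 2 and 3, -0.52. For all 13, every hypoxia library lay below every normoxia library. mt-Atp6, a subunit of ATP synthase, was at 29340.0, 27227 and 29033 CPM in normoxia and 16229.8, 11249 and 17700.0 CPM in hypoxia (log2 -0.92 ± 0.15, adjusted p = 0.00393), and was the member still called on library 1 alone (-0.81 ± 0.11, adjusted p = 0.0200). Male hypoxia library 2 was the lowest. Of 39 nuclear oxidative phosphorylation genes 4 were called lower (10.3%, near the 7.1% of all genes) and 0 higher, and of 17 tricarboxylic acid cycle genes 3 (17.6%) and 0, with medians of -0.29 and -0.38. All 39 and all 17 fold changes were negative. All hypoxia libraries lay below all normoxia libraries for 22 of the 39 and 13 of the 17, as for 19.8% of all genes tested. The counts of called genes were unstable: without male hypoxia library 1 they were 15 and 6, and without library 3 both were 0. The share of counts from the mitochondrial genome reflects RNA and not the number of mitochondria.

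Glycolysis genes changed in both directions. Of 20 tested, 3 were called higher and 5 lower (15% and 25%, against 8.47% and 7.1% of all genes). The median log2 fold change was 0.11, and 0.22 without male hypoxia libraries 2 and 3. Ldha, the lactate dehydrogenase chain that favours lactate formation, rose from 676, 637 and 708 CPM to 1233, 1107 and 1220.2 CPM (log2 0.82 ± 0.11, adjusted p = 0.00218; library 1 alone 0.87 ± 0.15, adjusted p = 0.0531). Ldhb, the chain typical of heart, fell from 353, 341 and 391 CPM to 249.6, 161 and 184 CPM (log2 -0.87 ± 0.16, adjusted p = 0.00694). Eno1, the widely expressed enolase, rose by a log2 fold change of 0.60 (adjusted p = 0.00585), and the muscle form Eno3 fell (-0.58), a call lost without male hypoxia library 2 or 3 or any male normoxia library (adjusted p = 0.0546 to 0.0816). Hk2, the insulin-regulated hexokinase, went from 276, 269.7 and 260.2 CPM to 192, 161 and 154 CPM (log2 -0.67 ± 0.12, adjusted p = 0.00699). Gapdh was not called (log2 0.13, adjusted p = 0.457).

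**Figure D4:**
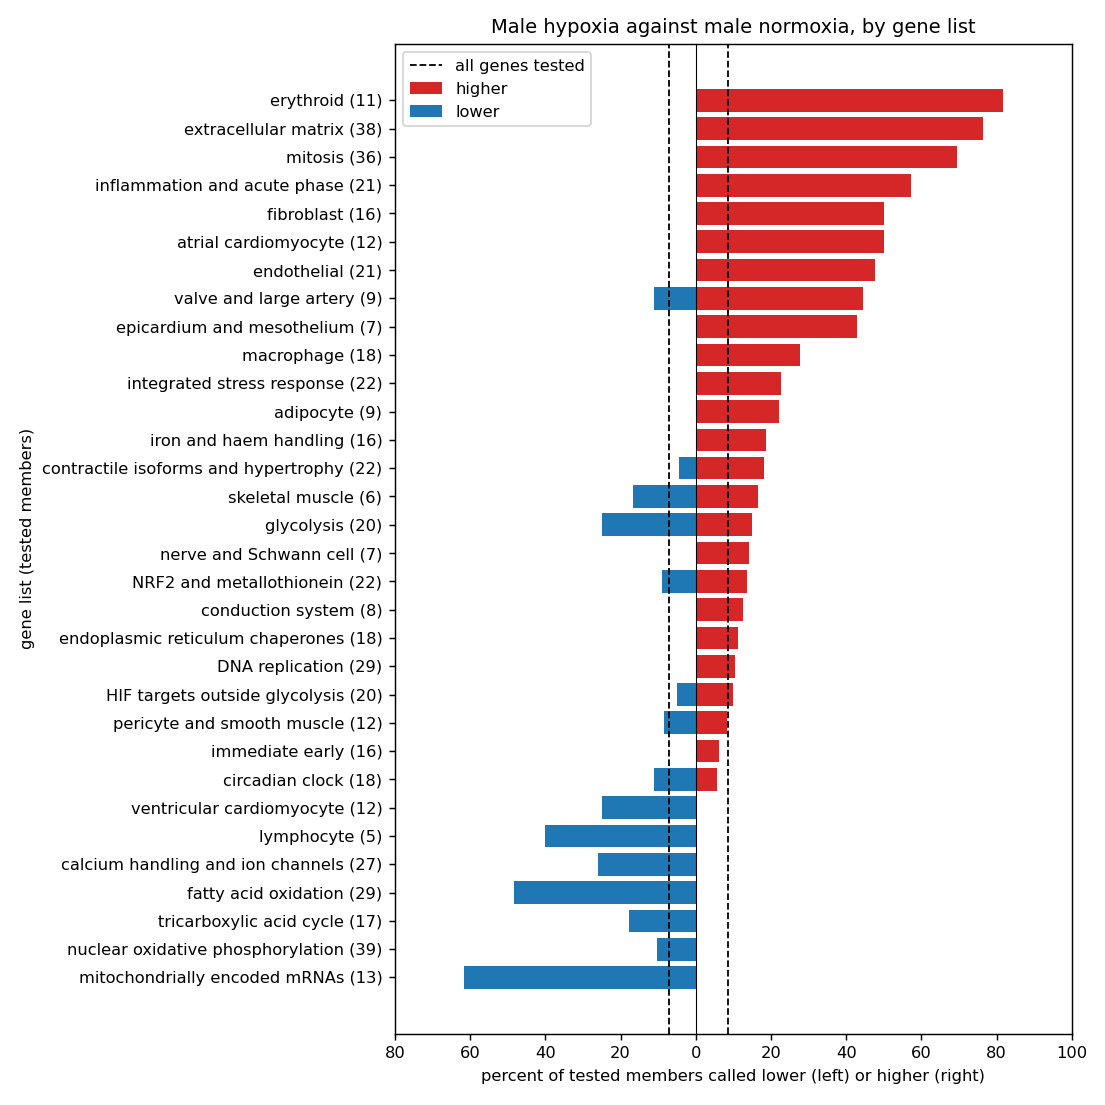
Each row is a gene list with the number tested in brackets. The horizontal axis is the percent of tested genes called higher (right) or lower (left) in male hypoxia, and the dashed lines mark all genes tested (8.47% and 7.1%). Erythroid, extracellular matrix and mitosis genes reach furthest right (9 of 11, 29 of 38 and 25 of 36) and mitochondrially encoded mRNAs and fatty acid oxidation furthest left (8 of 13 and 14 of 29).

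Muscle genes of the hypertrophy program were mixed. Of 22 tested contractile and hypertrophy genes 4 were called higher (Mybpc2, Nmrk2, Nppa and Tpm2) and 1 lower (Myh7b). These were 18.2% and 4.55% of the list, against 8.47% and 7.1% of all genes. Nppa, atrial natriuretic peptide (ENSMUSG00000041616), is made by the atria and by loaded ventricle. In female hypoxia libraries 2 and 3 it was at 463 and 1046 CPM, with Myl7 at 0.384 and 0.781 CPM. In males it was at 128, 67.8 and 129 CPM in normoxia and 485, 1512 and 797 CPM in hypoxia, with the highest male values in the 2 libraries that held Myl7. The log2 fold change was 3.10 ± 0.62 (adjusted p = 0.00995) and 2.16 ± 0.72 on library 1 alone (adjusted p = 0.234). Nppb, the related ventricular peptide, was at 171, 35.2 and 235 CPM in normoxia and 198, 265 and 505 CPM in hypoxia. Its groups overlapped (log2 1.14 ± 0.78, adjusted p = 0.339).

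The myosin heavy chains did not pass the test. Myh7, the slow chain that loaded mouse ventricles re-express, was at 95.6, 45.3 and 54.9 CPM in normoxia and 105, 454 and 309 CPM in hypoxia (log2 2.15 ± 0.90, adjusted p = 0.122), and 0.69 ± 1.20 on library 1 alone. Myh6, the fast adult chain, was at 13780.4, 14074 and 15012 CPM in normoxia and 14350.2, 11365 and 9155 CPM in hypoxia (log2 -0.30 ± 0.27, adjusted p = 0.487). Mybpc2, the fast skeletal form of myosin-binding protein C, did rise, from 16.2, 12.8 and 13.7 CPM to 33.8, 76.1 and 70.6 CPM (log2 2.09 ± 0.29, adjusted p = 0.00229). Nmrk2, a muscle kinase of NAD synthesis, was at 3.84, 1.85 and 4.40 CPM in normoxia and 18.9, 73.2 and 45.9 CPM in hypoxia, with log2 fold changes of 3.79 ± 0.54 (adjusted p = 0.00245) and, on library 1 alone, 2.50 ± 0.52 (adjusted p = 0.0963).

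The ion channel and calcium genes that were called all fell. Of 27 tested, 0 were called higher and 7 lower (25.9%, against 7.1% of all genes). The median log2 fold change was -0.27, and -0.15 without male hypoxia libraries 2 and 3. A positive fold change was found in 5 of the 27. Leaving out male hypoxia library 2 or 3 left 3 and 2 called. Leaving out male normoxia library 1 or 3 left 2 and 4. Scn4b, a beta subunit of the cardiac sodium channel (ENSMUSG00000046480), was at 40.6, 50.04 and 38.8 CPM in normoxia and 12.6, 7.67 and 6.48 CPM in hypoxia. The groups were far apart (fell by 2.29, SE 0.26, adjusted p = 0.00107; library 1 alone -1.78 ± 0.33, adjusted p = 0.0672). Kcnip2, the subunit of the transient outward potassium channel, went from 168, 123 and 87.0 CPM to 57.9, 50.5 and 35.7 CPM (log2 -1.39 ± 0.30, adjusted p = 0.0133). Its call was lost without male hypoxia library 3 or male normoxia library 1 (adjusted p = 0.0597 and 0.0531). Pln, phospholamban, the brake on the calcium pump, fell by 0.64 (SE 0.15, adjusted p = 0.0185), a call lost without male hypoxia library 2 or 3 (0.0661 and 0.0766) or male normoxia library 1 or 3 (0.0542 and 0.0646). The calcium channel gene Cacna1c and the release channel gene Ryr2 were not called.

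The share of called genes varied among stress pathways. Of 22 genes of the integrated stress response 5 were called higher (22.7%, against 8.47% of all genes) and 0 lower, led by Nupr1, a stress-induced chromatin protein (log2 1.13 ± 0.22, adjusted p = 0.00909), and Phgdh and Psat1, enzymes of serine synthesis (1.45 ± 0.31 and 1.02 ± 0.24, adjusted p = 0.0129 and 0.0170). The median log2 fold change of the 22 genes was 0.56, and 0.34 without male hypoxia libraries 2 and 3. The call of Psat1 was lost without male hypoxia library 3 or male normoxia library 1 or 3 (adjusted p = 0.0584 to 0.0665). Atf4, their shared transcription factor, rose from 61.8, 69.3 and 79.9 CPM to 139, 135 and 126 CPM (log2 0.92 ± 0.25, adjusted p = 0.0313), a call lost without any 1 of the 6 male libraries (0.0609 to 0.110). Of 22 NRF2 and metallothionein genes 3 were called higher and 2 lower (13.6% and 9.09%, near the 8.47% and 7.1% of all genes), and the NRF2 target Nqo1 had a log2 fold change of -0.05. Gpx1, a peroxide-removing enzyme, rose 1.96-fold (adjusted p = 0.00218). Of 18 chaperones of the endoplasmic reticulum 2 were called higher (11.1%), also near the share of all genes.

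Clock and immediate early genes depend on the hour and speed of sampling, which the labels do not give. Of 18 clock genes 1 was called higher and 2 lower (5.56% and 11.1%, against 8.47% and 7.1% of all genes). Ciart, a repressor of the clock, was at 10.3, 26.4 and 9.002 CPM in normoxia and 2.85, 2.91 and 3.52 CPM in hypoxia (log2 -2.30 ± 0.54, adjusted p = 0.0170), and Nr1d1 fell by 1.54 (SE 0.38, adjusted p = 0.0215). Both calls were lost without male hypoxia library 2 (adjusted p = 0.0638 and 0.0579), that of Ciart also without male hypoxia library 3 or male normoxia library 2 (0.0579 and 0.0617), and that of Nr1d1 also without male hypoxia library 1 or male normoxia library 3 (0.0503 and 0.0750). Of 16 immediate early genes Egr2 was called higher (6.25%, against 8.47% of all genes).

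Several firm changes lay outside the lists. Rbm3, a cold-induced RNA-binding protein (ENSMUSG00000031167), was at 66.2, 65.5 and 65.4 CPM in normoxia and 177, 152 and 167 CPM in hypoxia. Replicates were close (log2 1.33 ± 0.10, adjusted p = 0.000121), and library 1 alone gave 1.43 ± 0.13 (adjusted p = 0.00295). Aqp1, the water channel of capillaries and red cells (ENSMUSG00000004655), fell from 418, 539.9 and 378 CPM to 134, 127 and 106 CPM (log2 -1.86 ± 0.18, adjusted p = 0.000550), and was called on library 1 alone (-1.73 ± 0.29, adjusted p = 0.0486). Tesc, tescalcin, a partner of sodium-proton exchangers, fell by 1.30 (SE 0.15, adjusted p = 0.00106), and Slc9a2, such an exchanger, fell from 5.66, 6.42 and 5.76 CPM to 0.993, 1.24 and 0.969 CPM (log2 -2.47 ± 0.29, adjusted p = 0.00126). Maged2, a MAGE family gene, rose by a log2 fold change of 1.21 ± 0.11 (adjusted p = 0.000230; library 1 alone 1.28 ± 0.15, adjusted p = 0.00954). Uchl1, a neuronal ubiquitin hydrolase, was the 1 nerve gene of 7 called higher (14.3%, against 8.47% of all genes). It went from 9.06, 7.94 and 7.90 CPM to 23.4, 30.0 and 27.9 CPM (log2 1.71 ± 0.15, adjusted p = 0.000230). Krt19, a keratin of the epicardial covering, rose from 0.0629, 0.218 and 0.0648 CPM to 3.84, 3.29 and 6.78 CPM (log2 5.20 ± 0.74, adjusted p = 0.00254). Of 7 tested epicardial genes 3 were called higher (42.9%, against 8.47% of all genes), Krt19, Aldh1a2 and the complement gene C3. Upk3b, Krt8, Krt18 and Wt1 were not called. In hypoxia library 1 Upk3b, Krt8 and Krt18 were at 0.0662, 0.0662 and 0.397 CPM, within or below their normoxia range. The summed level of the list was 81.0 to 117 CPM in normoxia and 196 to 206 CPM in hypoxia. Most of it was C3, at 72.6 to 109 CPM in normoxia and 165 to 187 CPM in hypoxia.

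Some of the largest falls had no list. Inmt, a methyltransferase, went from 12.6, 13.4 and 14.4 CPM to 2.19, 2.91 and 1.27 CPM (log2 -2.66 ± 0.60, adjusted p = 0.0155, and 0.0675 without male hypoxia library 3). Akap5, an anchor for protein kinase A, went from 3.84, 5.93 and 4.27 CPM to 0.927, 0.667 and 1.17 CPM (log2 -2.34 ± 0.51, adjusted p = 0.0130, and 0.0566 without male hypoxia library 2). Cdk7, a kinase of the cell cycle and transcription, went from 11.2, 9.36 and 8.48 CPM to 3.97, 5.86 and 5.66 CPM, and was lowest in library 1 (log2 -0.90 ± 0.17, adjusted p = 0.00700; library 1 alone -1.28 ± 0.22, adjusted p = 0.0488). In each of these 3 genes all hypoxia libraries lay below all normoxia libraries. Ky and Lingo3 fell by 2.24 and 2.27 (adjusted p = 0.0374 and 0.0179), and the call of Ky was lost without any 1 of the 6 male libraries (0.0758 to 0.110). That of Lingo3 was lost without male hypoxia library 2 or 3 or male normoxia library 3 (0.0603 to 0.0765). Among the rises, Dio2, the deiodinase that activates thyroid hormone, went from 1.01, 1.25 and 1.23 CPM to 4.57, 13.6 and 15.7 CPM (log2 3.27 ± 0.54, adjusted p = 0.00453; library 1 alone 1.97 ± 0.58, adjusted p = 0.194).

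A few called genes had estimates of 0 in single libraries. Scaf1 was listed at 0 in male normoxia library 1 and Scaf11 at 0 in male hypoxia library 3. Both encode splicing-associated factors. Their adjusted p-values were 0.0422 and 0.0429, and without any 1 of the 6 male libraries that of Scaf1 was over 0.05, as was that of Scaf11 without male hypoxia library 2 or any male normoxia library. Estimated counts are shared out among overlapping transcripts, and an exact 0 may be a failed estimate.

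Females under the same oxygen regime, fitted in the same model with their own controls, mostly changed in the same direction. Of the 1183 genes called higher in males, 1122 (94.84%) had a positive log2 fold change in females and 356 were called there, where 3.97% of all genes were called higher. Of the 991 called lower, 955 (96.37%) were negative in females and 167 were called, against 2.02% of all genes. The share of all genes tested with the same direction in both sexes was not counted. The female medians for the genes called in males were 0.55 and -0.36, smaller than the male ones, but the genes were chosen by their male values. The difference between the male and the female effect passed the test for 1 gene (0.00716% of 13960), with 948 genes at an unadjusted p under 0.05 and 68 called by DESeq2.

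Hdgfl2, a chromatin reader related to hepatoma-derived growth factor, was that gene. It rose in males from 1.95, 2.88 and 3.04 CPM to 7.02, 5.29 and 7.85 CPM (log2 1.35 ± 0.24, adjusted p = 0.00909), and in females it was at 5.86, 5.50 and 7.03 CPM in normoxia and listed at 0 in all 3 hypoxia libraries. Next came C4b, a complement factor, which rose in males from 12.95, 14.03 and 16.6 CPM to 39.5, 89.7 and 71.2 CPM. In females it was at 15.2, 18.8 and 19.4 CPM in normoxia and 14.4, 17.5 and 16.4 CPM in hypoxia. The male groups were apart and the female groups overlapped, with a difference of 2.35 ± 0.35 on the log2 scale that did not pass (adjusted p = 0.0973). The chemokine genes Ccl9 and Ccl6 gave male log2 fold changes of 1.52 ± 0.18 and 1.71 ± 0.20 and female ones of -0.22 and 0.01 (adjusted p of the difference 0.0973 and 0.118). Nt5e, the ecto-enzyme that makes adenosine from AMP, went from 15.2, 12.4 and 15.03 CPM to 26.02, 23.3 and 28.2 CPM in males (log2 0.86 ± 0.11), with a female log2 fold change of -0.11 (adjusted p of the difference 0.110). Eps8, an actin regulator, gave 1.04 ± 0.12 in males and -0.01 in females (0.118). Slc26a10 showed the reverse, with 0.21 in males and 1.65 in females (adjusted p = 0.0973).

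**Figure D5:**
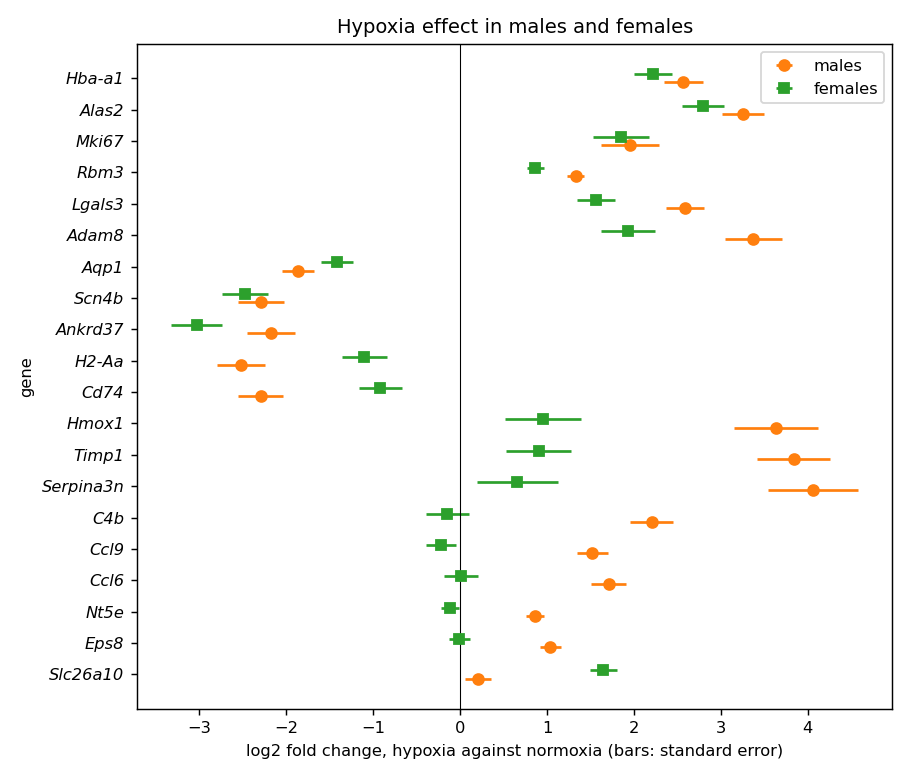
Each row is a gene named in the text or by its male against female difference. The horizontal axis is the log2 fold change, hypoxia against normoxia, with points for males and females and bars for the standard error of the fit. Alas2 and Scn4b lie close together in both sexes, while C4b, Ccl9 and Ccl6 are near 0 in females and above 1.5 in males.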

How the data were processed

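The submitters' processing notes name FastQC, Salmon and the GRCm39 build; the versions are not given in the sources used here. The deposited table holds, per the file headers, estimated counts, TPM and mean transcript lengths for each gene and library. The TPM values deposited by the authors were not tested. Estimated counts were rounded. Symbols (99.3% of 39210 genes) came from an annotation of another build and served as names only.

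edgeR 4.0.16 in R 4.3.3 kept 13960 genes (filterByExpr), scaled by TMM, and fitted group means to all 12 libraries (8 residual degrees of freedom). Fold changes are log2 male hypoxia against male normoxia ± SE from glmQLFTest, with Benjamini-Hochberg adjusted p-values from edgeR, called under 0.05. "Library 1 alone" means the fit without male hypoxia libraries 2 and 3. Levels are CPM per library, scaled here. limma 3.58.1 and DESeq2 1.42.0 were alternatives, and the count test was checked on simulated data. Named genes were the 12 largest rises and falls without overlap (mean log2 CPM of at least 1), the 8 rises and 8 falls of smallest p that also passed without libraries 2 and 3, the 8 largest rises and 4 largest falls in which library 1 stayed within the normoxia range, up to 4 per list, the 8 smallest male against female p, and fixed cardiac genes; other names were picked after their values were seen, and a few genes are not reported here. The genes and lists were chosen with earlier results of these data known. Promoters are RefSeq entries of GRCm38.p6.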

Additional observations from a re-analysis of the deposited data

Results flagged for a closer look

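The male and the female hypoxia effect on Hdgfl2 differed by a test of the difference itself (adjusted p = 0.000128, edgeR's quasi-likelihood test). The gene rose in all 3 male hypoxia libraries, to 5.29 to 7.85 CPM, above the 1.95 to 3.04 CPM of male normoxia. In females it was at 5.50 to 7.03 CPM in normoxia and listed at 0 in all 3 hypoxia libraries, where an exact 0 may be a failed estimate, so no fold is given.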

How the results depend on the processing

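The 1183 higher and 991 lower genes depended most on which libraries were used. Leaving out 1 library gave 519 to 1645 higher and 358 to 1391 lower genes, with the lowest counts without male hypoxia library 3 and the highest without female normoxia library 3. Leaving out any single male library other than hypoxia library 1 lowered both counts by over 1.5 times. Without male hypoxia libraries 2 and 3 there were 50 and 16, and without those and female normoxia library 3 there were 129 and 47. Without libraries 1 and 2 there were 440 and 276, and without 1 and 3 there were 214 and 124; these pairs were added after the data were seen. Transcript length offsets gave 716 and 549, and a test against a log2 fold change of 1 gave 24 and 6. The cause was not tested, beyond the fewer libraries. The replicate number as a block gave 1203 and 1065 over all libraries and 1046 and 798 over the males. Same-numbered libraries did not deviate together (r of -0.00163, -0.0435 and 0.0286), so the numbers do not pair them, and not every library correlated best with its own number. RLE or upper quartile factors, DESeq2, limma voom, no filter, a stricter one, only males, and removal of mitochondrial and haemoglobin genes each left both counts within 1.5 times. The count of 1 gene with a different effect in the sexes was 68 by DESeq2, 2 by limma voom, 6 with no filter, 7 without male hypoxia libraries 2 and 3, 6 without female normoxia library 3 as well, 8 and 12 without the other pairs, and 1 to 5 with 1 library left out. limma voom did not call Myl7, Myl4, Dkk3 or Hp higher (adjusted p = 0.433, 0.114, 0.0780 and 0.0611). No called gene named by the rule changed direction in any setting. Genes below the filter on low counts were not tested in the main fit. The fit with no filter called Sln and Mybphl higher (adjusted p = 0.00430 and 0.0247, edgeR's quasi-likelihood test).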
